A study of Mus musculus with 12 samples.

Results

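The Wnt and R-spondin pathway was followed through the somatic cells of the fetal mouse gonad around the time of sex determination. The members were selected by a rule on gene symbols that uses no measured value, and that was set with earlier results of these data known: the Wnt ligands, the Frizzled receptors, Sfrp1, Sfrp2, Sfrp4, Sfrp5, Dkk1 to Dkk4, Rspo1 to Rspo4, Lgr4 to Lgr6, and Lrp5, Lrp6, Znrf3, Rnf43, Axin2, Lef1, Tcf7, Nkd1, Sp5, Ctnnb1, Wif1 and Porcn. No gene in the count tables has the symbol Sfrp3. The gene also known by that name is listed there as Frzb, and it is given below with the further genes of the pathway. This gave 56 members of the 32285 genes in the count tables, and 49 of them had enough counts to be tested, beside 17707 of all genes. Gonads of E12 embryos on the mixed B6CBAF1/JRj background were profiled by droplet single-cell RNA sequencing in 12 libraries, 2 for each combination of sex (XX or XY) and genotype (WT, -KTS KO or +KTS KO). Wt1 encodes a zinc finger transcription factor that is made in forms with (+KTS) or without (-KTS) 3 extra amino acids between its last zinc fingers. Gonads of -KTS KO embryos carried the allele on both chromosomes and still made +KTS. Those of +KTS KO embryos, a model of Frasier syndrome with the donor splice site of intron 9 altered on both chromosomes, still made -KTS. The authors of the study reported more -KTS transcripts in +KTS KO gonads than in controls, with similar total WT1 protein in XY. Both mutations are germline alleles, so every cell type of the mutant embryo carried them. Gonads of several embryos were pooled in both XY -KTS KO libraries and in replicate 2 of XX -KTS KO, and some mutant embryos were younger by tail somite count than the WT embryos, so genotype and stage cannot be fully told apart.

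Wnt proteins are secreted signals that Porcn, an acyltransferase of the endoplasmic reticulum, modifies with a lipid before release. They bind Frizzled receptors together with the co-receptors Lrp5 or Lrp6, which stops the destruction of beta-catenin (Ctnnb1) and lets it act with the Tcf and Lef factors on target genes such as Axin2 and Sp5. The membrane ligases Znrf3 and Rnf43 remove Frizzled receptors from the cell surface, and R-spondins, bound to Lgr receptors, block these ligases and so strengthen the signal. Sfrp and Wif1 proteins bind Wnt ligands, and Dkk proteins such as Dkk1 bind the co-receptors. In the mouse gonad, Rspo1 and Wnt4 are known as ovarian signals of the XX gonad, and pre-granulosa cells and Sertoli cells are the supporting cells of ovary and testis.

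The libraries held 103730 cell barcodes, of which 76976 were kept after removal of poor cells and likely doublets. Clusters with markers of germ, endothelial, perivascular, immune, erythroid or mesonephric duct cells were set aside, and the unique molecular identifiers (UMIs) of the remaining 66154 gonadal somatic cells were summed in each library, 57109013 to 99463999 UMIs per sum. A level is given below as CPM, a gene's UMIs per 1000000 UMIs of that sum after TMM scaling of the sums, for replicate 1 and replicate 2 in that order. The gonadal genes Nr5a1, Gata4, Emx2, Lhx9 and Wt1 were detected in all 12 sums, and Xist and the Y-linked genes matched the sex labels of all 12. Wt1 itself was at 171 to 305 CPM, and since 3′ UMIs do not separate its forms this level does not check the genotypes. The libraries of XY +KTS KO were least alike (Pearson r = 0.974 across genes between log2 CPM). In replicate 1, 3130 and 1649 cells lay in 2 clusters with the early response genes Fos and Btg2 among their leading genes, and replicate 2 held 573 of the 583 cells of a cluster led by Hoxc10. The XX -KTS KO libraries differed in the summed level of 7 germ cell markers (7.75 CPM and 56.5 CPM) and in the share of somatic cells in unnamed clusters (3.48% and 24.0%), and the part of this in the results was not tested. No more than 32 barcodes were shared between any pair of libraries. In summed cells, fewer cells of a type and less RNA per cell cannot be told apart.

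In WT gonads, XX libraries held more of several ligands and target genes, and XY libraries more of the inhibitors Dkk1 and Sfrp4 and of the receptor Fzd9. Of the 49 members tested, 12 were called, that is, passed a false discovery rate (FDR) of 0.05 in the quasi-likelihood test of edgeR, with p-values adjusted by Benjamini-Hochberg over all genes, 9 higher and 3 lower in XX, beside 13.3% of all genes tested (6.29% higher and 6.97% lower). The median log2 fold change was 0.23 over the members and 0.017 over all genes. Wnt4, a ligand of the developing ovary (chr4:137277489-137299726, plus strand), was at 398 and 424 CPM in XX WT and at 35.7 and 73.7 CPM in XY WT. Both XX libraries were far above both XY libraries (log2 fold change 2.91 ± 0.42 (SE), adjusted p = 0.00242). Rspo1, the R-spondin known for its role in ovary formation (chr4:124986430-125009099, plus strand), was at 204 and 156 CPM in XX WT and 50.5 and 60.2 CPM in XY WT. It was also higher in both XX libraries (log2 fold change 1.70 ± 0.31 (SE), adjusted p = 0.00700), a call lost without XX WT replicate 1 (adjusted p = 0.0514) and without XY WT replicate 1 (adjusted p = 0.0673).

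The promoters of both ligands are shown because their levels separated XY WT from the other groups. They are RefSeq sequences of GRCm38.p6, from 250 bases before to 50 bases after the start annotated by RefSeq, which can differ from the gene's start given above, and such a sequence was found for 37 of the 56 members. Capitals mark matches on either strand to GTGGGNG, a core shared by binding sequences of Wt1 and related zinc finger factors. The Wnt4 sequence, chr4:137277385-137277684 on the plus strand, holds 1 match, 19 bases before the start. The Rspo1 sequence, chr4:124986180-124986479 on the plus strand, holds none.
Wnt4: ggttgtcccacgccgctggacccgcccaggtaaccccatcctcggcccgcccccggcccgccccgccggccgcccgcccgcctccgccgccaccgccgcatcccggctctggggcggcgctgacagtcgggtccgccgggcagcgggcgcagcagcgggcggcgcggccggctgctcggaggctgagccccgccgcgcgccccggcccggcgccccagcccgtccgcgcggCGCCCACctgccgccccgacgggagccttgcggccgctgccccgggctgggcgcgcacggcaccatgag
Rspo1: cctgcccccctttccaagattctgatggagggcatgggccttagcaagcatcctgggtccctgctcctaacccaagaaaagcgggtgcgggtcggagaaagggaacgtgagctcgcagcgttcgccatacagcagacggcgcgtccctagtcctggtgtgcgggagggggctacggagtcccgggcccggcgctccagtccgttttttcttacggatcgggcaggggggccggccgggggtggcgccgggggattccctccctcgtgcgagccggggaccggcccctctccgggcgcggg
The core is present in 8456 of 27025 promoters, 1 per gene of the table (31.3%), and in 21 of the 37 member promoters, shares that were not matched for base composition or tested. A match describes letters in this window and not a bound site.

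Further ligands followed the same order in WT. Wnt9a, a ligand better known from joints, was at 6.76 and 6.67 CPM in XX WT and 0.667 and 1.51 CPM in XY WT (log2 fold change 2.63 ± 0.46 (SE), adjusted p = 0.00590). Wnt10a was at 8.16 and 5.32 against 2.58 and 2.49 CPM (log2 fold change 1.41 ± 0.29 (SE), adjusted p = 0.0117), and its call was lost without XX WT replicate 1 (adjusted p = 0.0931), without XY WT replicate 1 (adjusted p = 0.0776) and without XY WT replicate 2 (adjusted p = 0.0573). Neither ligand overlapped between the sexes. Wnt6, the neighbour of Wnt10a, was at 320.0 and 372 CPM in XX WT and 253 and 262 CPM in XY WT and did not pass the test (log2 fold change 0.43 ± 0.19 (SE), adjusted p = 0.184). A further called ligand, Wnt2b, was chosen for mention after its values were seen and stayed at or below 1.34 CPM. Its call was lost without XX WT replicate 2 (adjusted p = 0.0919) and without XY WT replicate 2 (adjusted p = 0.0672).

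Lef1, Sp5 and Axin2 also lay higher in XX WT. Lef1, a nuclear partner of beta-catenin and itself a reported target, was at 46.5 and 54.7 CPM in XX WT and 9.12 and 14.7 CPM in XY WT (log2 fold change 2.09 ± 0.23 (SE), adjusted p = 0.000717). Sp5, a transcription factor gene switched on by Wnt signals in many tissues, was at 61.0 and 62.7 CPM against 5.55 and 7.89 CPM (log2 fold change 3.20 ± 0.49 (SE), adjusted p = 0.00319). Axin2, a feedback inhibitor and widely used readout of the pathway, was at 17.6 and 24.9 CPM against 3.81 and 4.93 CPM (log2 fold change 2.28 ± 0.34 (SE), adjusted p = 0.00305). The sexes did not overlap for any of the 3, and their calls held in each alternative run. Nkd1, another feedback gene, was at 45.1 and 44.8 CPM and 28.8 and 35.6 CPM and did not pass (adjusted p = 0.413). Ctnnb1 (beta-catenin) was at 135 and 145 CPM in XX WT and 155 and 175 CPM in XY WT and was called in no comparison of this report.

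The promoters of Sp5 and Axin2 are printed as examples of reported target genes, with capitals for the core CTTTGA or CTTTGT of the sequence bound by Tcf and Lef factors, on either strand. The Sp5 window, chr2:70474673-70474972 on the plus strand, holds 5 matches, at 221, 212, 204 and 104 bases before and 42 bases after the start. The Axin2 window, chr11:108920099-108920398 on the plus strand, holds none.
Sp5: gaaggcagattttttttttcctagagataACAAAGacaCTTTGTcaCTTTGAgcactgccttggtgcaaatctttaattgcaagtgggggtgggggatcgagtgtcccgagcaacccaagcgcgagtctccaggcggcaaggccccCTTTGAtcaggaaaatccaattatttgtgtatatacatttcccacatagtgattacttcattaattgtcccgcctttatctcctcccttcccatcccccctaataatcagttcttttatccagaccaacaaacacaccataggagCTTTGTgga
Axin2: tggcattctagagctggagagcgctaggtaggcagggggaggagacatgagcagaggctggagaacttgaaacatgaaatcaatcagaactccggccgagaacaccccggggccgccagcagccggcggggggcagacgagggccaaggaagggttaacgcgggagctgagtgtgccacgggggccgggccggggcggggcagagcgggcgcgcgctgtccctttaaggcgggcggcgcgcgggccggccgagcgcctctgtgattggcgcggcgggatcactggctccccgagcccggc
This core occurs in 8453 of the same promoters (31.3%) and in 8 of the 37 member promoters. The absence of the letters from a window says nothing of sites elsewhere.

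Dkk1, a secreted inhibitor that binds Lrp5 and Lrp6, ran the other way. It was at 4.24 and 4.22 CPM in XX WT and at 69.9 and 53.6 CPM in XY WT (log2 fold change -3.87 ± 0.37 (SE), adjusted p = 0.000314). Fzd9, a Frizzled receptor, was at 0.414 and 0.568 CPM in XX WT and 12.4 and 11.6 CPM in XY WT (log2 fold change -4.60 ± 0.34 (SE), adjusted p = 8.23e-05). Both XY libraries exceeded both XX libraries for each gene, and both calls held in each alternative run. Rnf43, higher in XX WT, and Sfrp4, higher in XY WT, were the remaining calls. Both are named after their values were seen and lay under 5 CPM in every WT library. The call of Rnf43 was lost without XY WT replicate 1 (adjusted p = 0.0777) and that of Sfrp4 without XX WT replicate 1 (adjusted p = 0.0654).

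**Figure D1:**
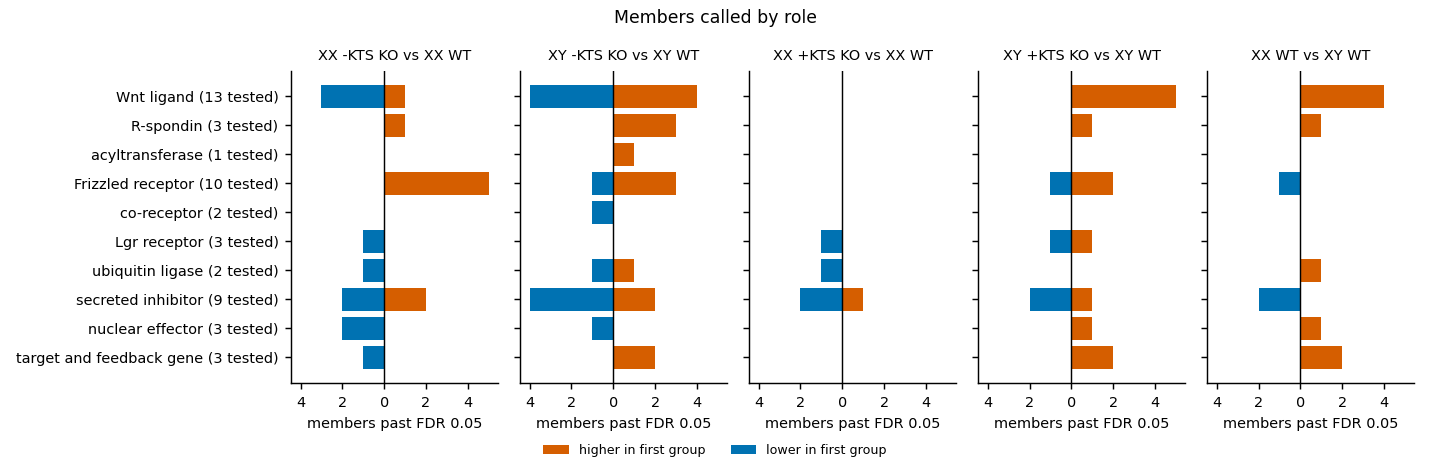
Number of members past an FDR of 0.05 in 5 comparisons, by role, with bars to the right for members higher and to the left for members lower in the first group named; the number tested stands beside each role. Inhibitors and ligands moved in both directions in the -KTS KO, while the 13 rises in XY +KTS KO include 5 ligands.

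In the -KTS KO, which lacks the -KTS form, the members changed in both directions and in both sexes. In XX, 19 of 49 were called, 9 higher and 10 lower than in WT, beside 16.2% of all genes tested (6.74% higher and 9.5% lower). In XY, 28 were called, 16 higher and 12 lower, beside 23.4% of all genes tested (11% higher and 12.4% lower). The median log2 fold change of the members was 0.013 in XX and 0.29 in XY, and that of all genes 0.010 and 0.015. Here and below, counts under another setting stand without the share of all genes called under it. A loss among the members therefore cannot be told from a loss among all genes. Leaving out 1 library at a time gave 11 to 13 calls in XX and 15 to 19 in XY. The XX count fell to 12 without XX -KTS KO replicate 1, 12 without replicate 2 and 11 without XX WT replicate 2. The XY count fell to 15 without XY -KTS KO replicate 2, and to 18 and 16 without XY WT replicate 1 or 2.

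Among the falls in both sexes were 2 ligand genes that lie side by side. Wnt6 (chr1:74771892-74785322) and Wnt10a (chr1:74791516-74804179) are neighbours on the plus strand of chromosome 1 (GRCm38, GENCODE M21). Wnt6, at 320.0 and 372 CPM in XX WT and 253 and 262 CPM in XY WT, was at 82.5 and 54.5 CPM in XX -KTS KO and 71.8 and 73.9 CPM in XY -KTS KO. No mutant library reached any WT library. The log2 fold change was -2.34 ± 0.20 (SE) in XX (adjusted p = 0.000221) and -1.82 ± 0.20 in XY (adjusted p = 0.000304). Wnt10a fell to 0.577 and 0.798 CPM in XX (log2 fold change -3.30 ± 0.32 (SE), adjusted p = 0.000325) and to 0.470 and 0.415 CPM in XY (log2 fold change -2.52 ± 0.32 (SE), adjusted p = 0.000608). All 4 calls held in each alternative run. The Wnt6 promoter, chr1:74771642-74771941 on the plus strand, is shown with GTGGGNG matches in capitals, 47 and 23 bases before the start, and Wnt10a has no entry in the table.
Wnt6: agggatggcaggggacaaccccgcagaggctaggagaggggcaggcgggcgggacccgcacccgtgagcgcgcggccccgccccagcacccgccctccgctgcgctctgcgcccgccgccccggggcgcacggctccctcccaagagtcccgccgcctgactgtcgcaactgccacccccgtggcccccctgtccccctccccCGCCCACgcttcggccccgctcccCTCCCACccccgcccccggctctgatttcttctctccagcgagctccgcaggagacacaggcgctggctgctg

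Of the other ligands, Wnt4 was called in XY and not in XX, and Wnt9a in XX and not in XY. The difference between the sexes was called for Wnt4 and not for Wnt9a (adjusted p = 0.0820). The Wnt4 call (adjusted p = 0.0352) was lost without XX WT replicate 1 (adjusted p = 0.0994), without XX WT replicate 2 (adjusted p = 0.117), without XY WT replicate 1 (adjusted p = 0.110), without XX -KTS KO replicate 2 (adjusted p = 0.114), without XY -KTS KO replicate 1 (adjusted p = 0.121), without XY -KTS KO replicate 2 (adjusted p = 0.0782) and in all kept cells (adjusted p = 0.0818). Wnt4 was at 429 and 208 CPM in XX -KTS KO, a range that includes both XX WT libraries, and was not called (log2 fold change -0.37 ± 0.39 (SE), adjusted p = 0.579). In XY -KTS KO it was at 308 and 234 CPM, above both XY WT libraries (log2 fold change 2.31 ± 0.41 (SE), adjusted p = 0.00349). Wnt9a stood at 1.41 and 2.66 CPM in XX -KTS KO, below both XX WT libraries (log2 fold change -1.73 ± 0.44 (SE), adjusted p = 0.0254), and this call was lost without XX WT replicate 1 (adjusted p = 0.0993), without XX WT replicate 2 (adjusted p = 0.0841) and without XX -KTS KO replicate 1 (adjusted p = 0.167). In XY -KTS KO it was at 1.18 and 2.11 CPM, near the XY WT level, and was not called (adjusted p = 0.371). Wnt5b fell slightly in XY, from 38.3 and 35.5 to 25.1 and 25.6 CPM (log2 fold change -0.54 ± 0.16 (SE), adjusted p = 0.0373), a call lost without any 1 of the 4 libraries (adjusted p from 0.0786 to 0.149) and in all kept cells (adjusted p = 0.1003). A replicate block also ended the Wnt5b call. Of the ligands under 5 CPM, Wnt9b was called higher in both sexes and Wnt2 lower and Wnt2b and Wnt8b higher in XY, all named after their values were seen. The Wnt9b calls were lost in XX without any 1 of the 4 libraries (adjusted p from 0.0518 to 0.0980) and in all kept cells (adjusted p = 0.306) and in XY without any 1 of the 4 libraries (adjusted p from 0.114 to 0.175), with no filter on low counts (adjusted p = 0.0928), in all kept cells (adjusted p = 0.410) and with DESeq2 (adjusted p = 0.174). In XY the Wnt2 call was lost without XY WT replicate 1 (adjusted p = 0.215), without XY -KTS KO replicate 1 (adjusted p = 0.0861), without XY -KTS KO replicate 2 (adjusted p = 0.170), in all kept cells (adjusted p = 0.0622), in a fit of the groups compared alone (adjusted p = 0.0810) and with DESeq2 (adjusted p = 0.0610), that of Wnt2b without XY WT replicate 2 (adjusted p = 0.134), without XY -KTS KO replicate 1 (adjusted p = 0.106), without XY -KTS KO replicate 2 (adjusted p = 0.0657) and in a fit of the groups compared alone (adjusted p = 0.0570) and that of Wnt8b without XY WT replicate 2 (adjusted p = 0.0859) and without XY -KTS KO replicate 2 (adjusted p = 0.0553). Wnt9b was at 0.196 and 0.231 CPM in XX -KTS KO and 0.242 and 0.195 CPM in XY, against at most 0.0615 CPM in WT, and its highest level by cluster (89.5 CPM) was among the mesonephric duct-like cells that had been set aside. The summed duct markers in the somatic sums were at 39.7 to 60.6 CPM in the 4 -KTS KO libraries and 4.32 to 14.2 CPM in the other 8, and their part in this result was not tested. Of the 7 duct markers, 2 were at 0 in each XX -KTS KO library, and at most 1 in any other library. The sum therefore does not stand for all of them.

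**Figure D2:**
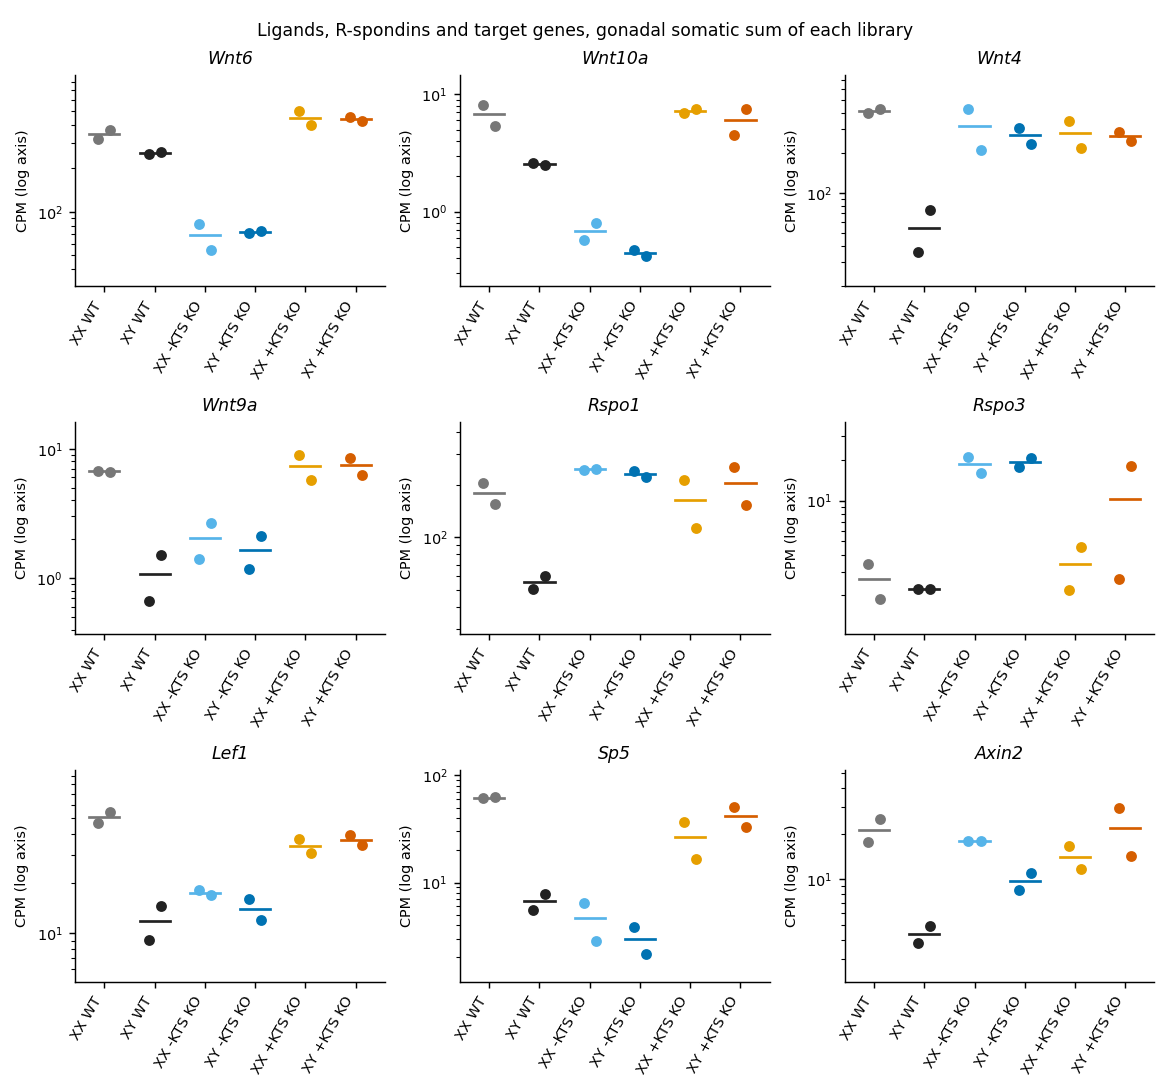
CPM of 9 ligands, R-spondins and target genes in the gonadal somatic sum of each library, on a log axis, with a point per library and a line at the mean of the 2 libraries of each group. Wnt6 and Wnt10a lie lowest in both -KTS KO groups, whereas Wnt4, Lef1 and Axin2 lie lowest in XY WT or close to it.

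Of the R-spondin genes, Rspo1 and Rspo3 rose in XY -KTS KO and Rspo3 in XX. All 3 tested were called higher in XY, beside 11% of all genes, and 1 in XX, beside 6.74%. Rspo1 was at 238 and 220.0 CPM in XY -KTS KO against 50.5 and 60.2 CPM in XY WT (log2 fold change 2.05 ± 0.31 (SE), adjusted p = 0.00157). In XX -KTS KO it was at 242 and 247 CPM, above both XX WT libraries, without passing the test (log2 fold change 0.45 ± 0.30 (SE), adjusted p = 0.363). Rspo3 rose in both sexes, from 3.42 and 1.87 to 21.1 and 15.9 CPM in XX (log2 fold change 2.81 ± 0.72 (SE), adjusted p = 0.0264) and from 2.22 and 2.21 to 17.8 and 20.5 CPM in XY (log2 fold change 3.11 ± 0.73 (SE), adjusted p = 0.0134). All 4 mutant libraries lay above all 4 WT libraries. The third, Rspo4, is named after its values were seen and stayed at or below 0.242 CPM. With a replicate block Rspo4 was not called in XY. Its XY call was lost without any 1 of the 4 libraries (adjusted p from 0.0737 to 0.193), with no filter on low counts (adjusted p = 0.0839), in all kept cells (adjusted p = 0.0621), in a fit of the groups compared alone (adjusted p = 0.0559) and with DESeq2 (adjusted p = 0.165). The XX call of Rspo3 was lost without any 1 of the 4 libraries (adjusted p from 0.0698 to 0.164) and in all kept cells (adjusted p = 0.0501), and the XY call without XY WT replicate 1 (adjusted p = 0.0774), without XY WT replicate 2 (adjusted p = 0.0786) and without XY -KTS KO replicate 2 (adjusted p = 0.0563). Of the Lgr receptors that bind R-spondins, Lgr4 was at 80.0 and 77.9 CPM in XX and 91.7 and 102 CPM in XY and was not called against WT. Lgr5 was at 3.20 and 1.58 CPM in XX -KTS KO and 3.10 and 3.01 CPM in XY -KTS KO, below the WT libraries of the same sex, but passed in neither (adjusted p = 0.233 and 0.0511). Lgr6, named after its values were seen, was called lower in XX -KTS KO, at 0.110 and 0.124 CPM against 0.444 and 0.797 CPM, a call lost without XX WT replicate 2 (adjusted p = 0.0637), without XX -KTS KO replicate 1 (adjusted p = 0.0799) and without XX -KTS KO replicate 2 (adjusted p = 0.0582).

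Fzd4, Fzd2 and Fzd7, receptors of the Frizzled family, rose in both sexes. Of the 10 tested, 5 were called higher in XX, beside 6.74% of all genes, and 3 higher and 1 lower in XY, beside 11% and 12.4%. Fzd4 was at 3.59 and 5.28 CPM in XX WT and 20.3 and 17.1 CPM in XX -KTS KO (log2 fold change 2.08 ± 0.32 (SE), adjusted p = 0.00258), and at 3.97 and 3.20 CPM in XY WT and 15.3 and 22.1 CPM in XY -KTS KO (log2 fold change 2.38 ± 0.32 (SE), adjusted p = 0.000862). All mutant libraries lay above all WT libraries. The same held for Fzd2, at 81.4 and 69.7 CPM in XX -KTS KO and 79.3 and 83.6 CPM in XY -KTS KO against 36.5 and 42.9 and 34.2 and 29.3 CPM in WT. Its log2 fold changes were 0.93 ± 0.14, adjusted p = 0.00239, in XX and 1.36 ± 0.14, adjusted p = 0.000234, in XY. Fzd7 changed by 1.63 ± 0.20, adjusted p = 0.000833, in XX and by 1.69 ± 0.19, adjusted p = 0.000367, in XY, and the XX call was lost in all kept cells (adjusted p = 0.0854). The fifth receptor called in XX, Fzd10, is named after its values were seen, was at 0.0591 and 0.0655 CPM in XX WT and 0.344 and 0.213 CPM in XX -KTS KO, and lost its call without any 1 of the 4 libraries (adjusted p from 0.0511 to 0.166) and with DESeq2 (adjusted p = 0.0582), while in all kept cells its log2 fold change was -0.53.

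Fzd8 and Fzd9 differed between the sexes in their calls. Fzd8 rose in XX from 3.99 and 4.69 to 12.4 and 11.2 CPM (log2 fold change 1.44 ± 0.23 (SE), adjusted p = 0.00297). In XY it was at 6.80 and 7.22 CPM in WT and 8.94 and 13.1 CPM in the mutant, also higher in both mutant libraries but not called (adjusted p = 0.0604), and the difference between the sexes was not called (adjusted p = 0.228). Fzd9, high in XY WT only, fell in XY -KTS KO to 1.22 and 1.12 CPM (log2 fold change -3.35 ± 0.31 (SE), adjusted p = 0.000105). In XX -KTS KO it was at 0.810 and 0.532 CPM (adjusted p = 0.389). The co-receptor Lrp5 was at 6.73 and 7.15 CPM in XY WT and 4.61 and 4.91 CPM in XY -KTS KO (log2 fold change -0.54 ± 0.15 (SE), adjusted p = 0.0295), a call lost without any 1 of the 4 libraries (adjusted p from 0.0788 to 0.138), with no filter on low counts (adjusted p = 0.0628), in all kept cells (adjusted p = 0.129) and in a fit of the groups compared alone (adjusted p = 0.0744). Lrp6 was called nowhere. Porcn was higher in XY -KTS KO, at 2.79 and 2.66 CPM against 1.51 and 1.54 CPM (log2 fold change 0.84 ± 0.21 (SE), adjusted p = 0.0179), a call lost without any 1 of the 4 libraries (adjusted p from 0.0762 to 0.0861) and in all kept cells (adjusted p = 0.266).

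The ligases went apart. Znrf3 was at 6.67 and 7.54 CPM in XX WT and 3.40 and 2.61 CPM in XX -KTS KO (log2 fold change -1.24 ± 0.28 (SE), adjusted p = 0.0165), and at 6.32 and 7.10 CPM in XY WT and 2.15 and 3.49 CPM in XY -KTS KO (log2 fold change -1.25 ± 0.28 (SE), adjusted p = 0.0115). The mutants lay below WT in both sexes. The XX call was lost without any 1 of the 4 libraries (adjusted p from 0.0567 to 0.119) and in all kept cells (adjusted p = 0.0611), and the XY call without XY WT replicate 2 (adjusted p = 0.0530) and without XY -KTS KO replicate 1 (adjusted p = 0.0800). Rnf43, under 5 CPM throughout and named after its values were seen, rose in XY -KTS KO from 0.319 and 0.661 to 3.20 and 3.83 CPM (log2 fold change 2.84 ± 0.50 (SE), adjusted p = 0.00314) and was not called in XX (adjusted p = 0.941).

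Among the genes grouped as secreted inhibitors, Sfrp1 rose in both sexes. It was at 33.9 and 51.2 CPM in XX WT and 216 and 166 CPM in XX -KTS KO (log2 fold change 2.17 ± 0.30 (SE), adjusted p = 0.00154), and at 43.1 and 40.7 CPM in XY WT and 180.5 and 168 CPM in XY -KTS KO (log2 fold change 2.06 ± 0.30 (SE), adjusted p = 0.00121). Every mutant library was above every WT library, and both calls held in each alternative run. Sfrp2 was at 37.9 and 26.4 CPM in XX -KTS KO and 104 and 39.1 CPM in XY -KTS KO, and only the XY rise was called (log2 fold change 4.36 ± 0.94 (SE), adjusted p = 0.00911; XX adjusted p = 0.0832). The XY call was lost without XY WT replicate 1 (adjusted p = 0.0656) and without XY WT replicate 2 (adjusted p = 0.0574), and the XY libraries differed widely. Replicate 1 held 224 and replicate 2 95 cells of a cluster led by Sfrp2, Twist1 and Lum, where Sfrp2 reached 1069 CPM. Without the clusters led by mesenchyme and muscle genes, an alternative chosen after seeing the data, the log2 fold change in XY was 3.64 and the call held.

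Dkk1 moved in opposite directions. In XX -KTS KO it was at 12.6 and 12.1 CPM, above both XX WT libraries (log2 fold change 1.54 ± 0.34 (SE), adjusted p = 0.0138), a call lost without any 1 of the 4 libraries (adjusted p from 0.0591 to 0.0884) and in all kept cells (adjusted p = 0.0890). In XY -KTS KO it was at 26.1 and 14.1 CPM, below both XY WT libraries (log2 fold change -1.62 ± 0.33 (SE), adjusted p = 0.00698), a call lost without XY -KTS KO replicate 2 (adjusted p = 0.0569) and in all kept cells (adjusted p = 0.0523). Wif1, Dkk4 and Sfrp4, which lay under 5 CPM in the groups compared and are named after their values were seen, were called lower in XY -KTS KO, and Wif1 and Dkk4 also in XX. Wif1 went from 1.61 and 2.35 to 0.393 and 0.390 CPM in XX and from 3.45 and 4.10 to 0.512 and 0.561 CPM in XY. For Dkk4, XX -KTS KO held 1 and 0 UMIs in its 2 libraries and XX WT 9 and 17 UMIs. The XX call of Dkk4 was lost without XX WT replicate 2 (adjusted p = 0.0641), without XX -KTS KO replicate 1 (adjusted p = 0.0575) and without XX -KTS KO replicate 2 (adjusted p = 0.0795).

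**Figure D3:**
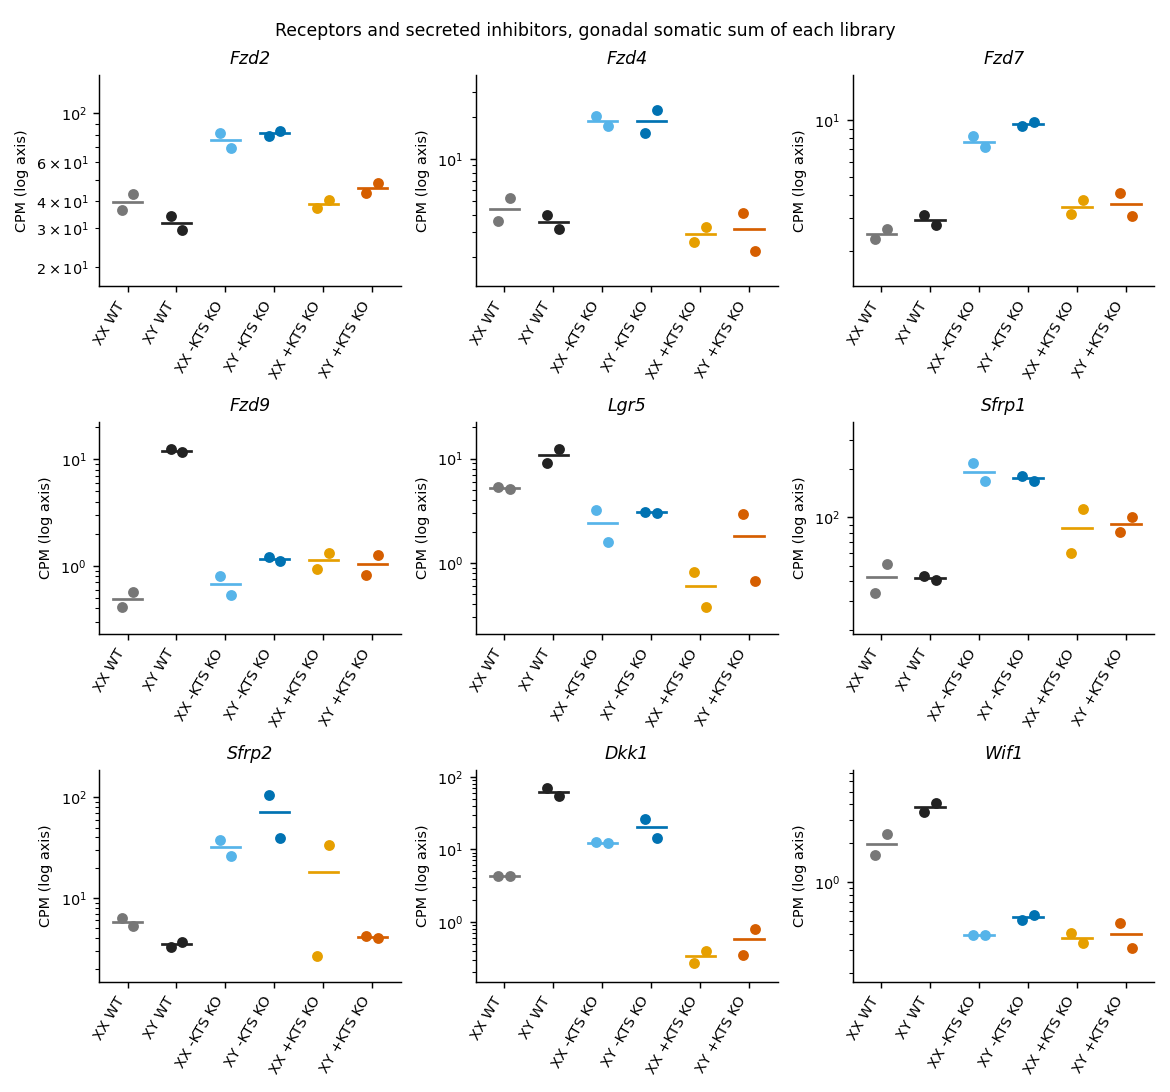
CPM of 9 receptors and secreted inhibitors in the gonadal somatic sum of each library, on a log axis, with a point per library and a line at the mean of the 2 libraries of each group. Fzd2, Fzd4, Fzd7 and Sfrp1 are highest in the 4 -KTS KO libraries, Fzd9 and Dkk1 in XY WT, and Dkk1 is lowest in the 4 +KTS KO libraries.

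Lef1, Tcf7 and Sp5 fell in XX -KTS KO. Lef1 fell in XX from 46.5 and 54.7 to 18.1 and 16.9 CPM (log2 fold change -1.53 ± 0.23 (SE), adjusted p = 0.00239), and in XY -KTS KO, at 16.0 and 11.99 CPM, it overlapped XY WT (log2 fold change 0.24 ± 0.23 (SE), adjusted p = 0.497). Sp5 fell in XX from 61.0 and 62.7 to 6.43 and 2.82 CPM (log2 fold change -3.73 ± 0.50 (SE), adjusted p = 0.00137). In XY it was at 3.81 and 2.15 CPM, below both XY WT libraries, and missed the threshold (log2 fold change -1.18 ± 0.47 (SE), adjusted p = 0.103). It passed with DESeq2 (adjusted p = 0.0299), with no filter on low counts (adjusted p = 0.0282), in a fit of the groups compared alone (adjusted p = 0.0482) and with a replicate block. Tcf7, the gene of the factor Tcf1, fell in both sexes, to 9.46 and 6.88 CPM in XX (from 16.9 and 16.8) and 7.30 and 6.41 CPM in XY (from 12.6 and 14.9). Its log2 fold changes were -1.04 ± 0.20, adjusted p = 0.00789, and -1.01 ± 0.20, adjusted p = 0.00652. These calls were lost in XX without XX -KTS KO replicate 2 (adjusted p = 0.0678) and in XY without XY -KTS KO replicate 2 (adjusted p = 0.0559).

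Axin2 did not follow Sp5 and Lef1. It was at 17.8 and 17.8 CPM in XX -KTS KO, within or close to the XX WT range (log2 fold change -0.25 ± 0.32 (SE), adjusted p = 0.651), and rose in XY to 8.44 and 11.1 CPM (log2 fold change 1.16 ± 0.34 (SE), adjusted p = 0.0325), a call lost without any 1 of the 4 libraries (adjusted p from 0.0568 to 0.167) and in all kept cells (adjusted p = 0.105). Nkd1 was at 65.7 and 60.001 CPM in XX (adjusted p = 0.393) and 65.6 and 72.9 CPM in XY (log2 fold change 1.10 ± 0.35 (SE), adjusted p = 0.0454), above WT in all 4 libraries, and its XY call was lost without any 1 of the 4 libraries (adjusted p from 0.0940 to 0.198) and with the mesenchyme and muscle clusters left out (adjusted p = 0.0665). Ctnnb1 was at 130.2 and 104 CPM in XX and 105 and 117 CPM in XY and was not called.

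**Figure D4:**
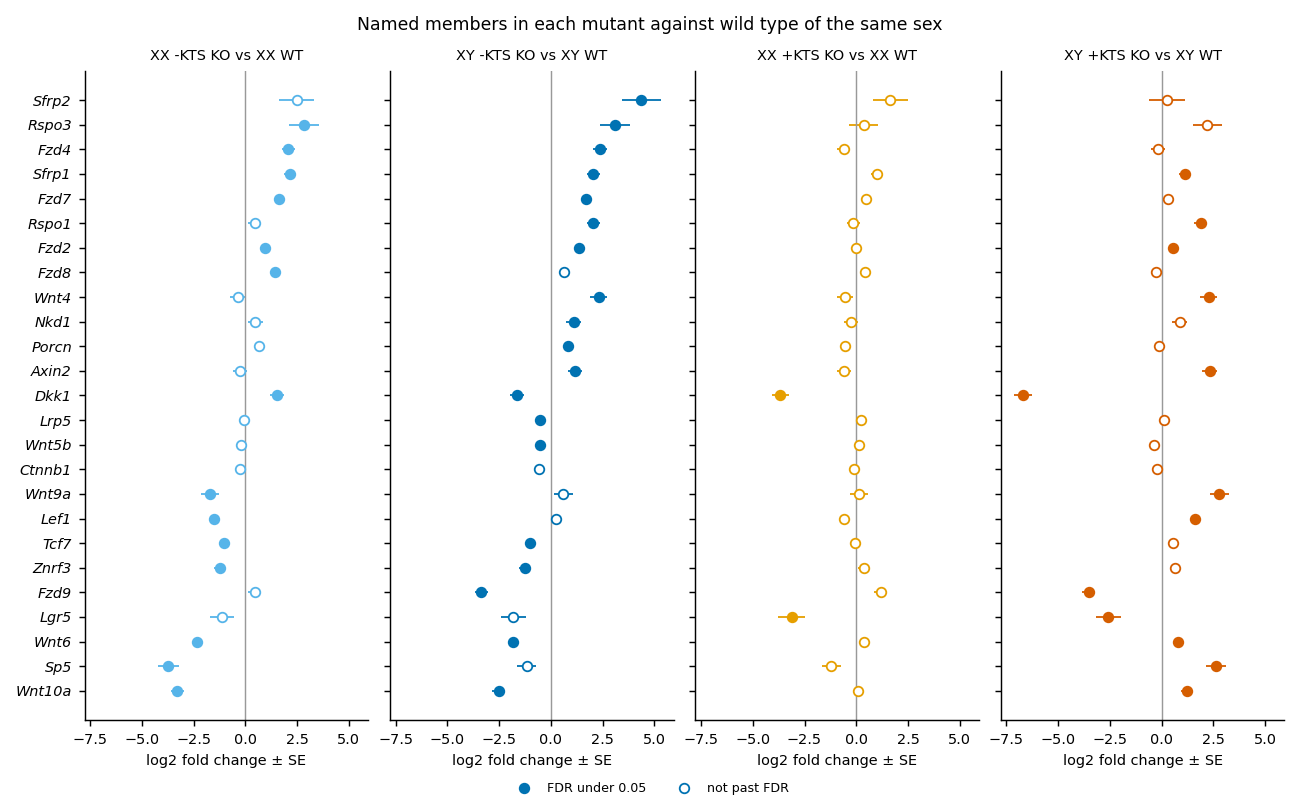
Log2 fold change with SE of the 25 members named by rule in each mutant against WT of the same sex, ordered by their mean in the 2 -KTS KO comparisons; filled points passed an FDR of 0.05 and open points did not. Wnt10a and Wnt6 lie below 0 and Rspo3 above 0 with filled points in both -KTS KO sexes, and Dkk1 has the lowest value in both +KTS KO sexes.

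The +KTS KO, in which only -KTS is made, changed members in both sexes. In XX, 5 of 49 were called, 1 higher and 4 lower, beside 4.98% of all genes tested (2.31% higher and 2.67% lower). In XY, 17 were called, 13 higher and 4 lower, beside 12.4% of all genes tested (6.03% higher and 6.33% lower). The median log2 fold change of the members was 0.065 in XX and 0.55 in XY, against 0.00030 and 0.050 over all genes. The XX count was 3 without XX WT replicate 1, XX WT replicate 2 or XX +KTS KO replicate 2. The XY count was 6 without XY WT replicate 1, 9 without XY WT replicate 2 and 8 in a fit of the groups compared alone.

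Wnt4, Wnt9a and Rspo1, which are low in XY WT, rose in XY +KTS KO. Wnt4 was at 284 and 246 CPM (log2 fold change 2.28 ± 0.41 (SE), adjusted p = 0.00823), above both XY WT libraries, a call lost without XY WT replicate 1 (adjusted p = 0.0558). Rspo1 was at 253 and 154 CPM (log2 fold change 1.88 ± 0.31 (SE), adjusted p = 0.00552), a call lost without XY WT replicate 1 (adjusted p = 0.0522). Wnt9a was at 8.56 and 6.32 CPM (log2 fold change 2.78 ± 0.46 (SE), adjusted p = 0.00567), and this call held in each alternative run. None of these genes overlapped XY WT. Wnt6 rose to 459 and 427 CPM (log2 fold change 0.78 ± 0.19 (SE), adjusted p = 0.0298), a call lost without XY WT replicate 1 (adjusted p = 0.150), without XY WT replicate 2 (adjusted p = 0.0907), without XY +KTS KO replicate 1 (adjusted p = 0.0831) and in a fit of the groups compared alone (adjusted p = 0.117). Wnt10a rose to 4.51 and 7.44 CPM (log2 fold change 1.24 ± 0.29 (SE), adjusted p = 0.0227), a call lost without XY WT replicate 1 (adjusted p = 0.114), without XY WT replicate 2 (adjusted p = 0.0896), without XY +KTS KO replicate 2 (adjusted p = 0.0690) and in a fit of the groups compared alone (adjusted p = 0.120).

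In XX +KTS KO none of the 13 ligands tested was called, near the share of all genes called there (4.98%). Wnt6 was at 499.9 and 399 CPM, above both XX WT libraries, with an adjusted p of 0.353. Wnt4 was at 349 and 219 CPM, below both (log2 fold change -0.54 ± 0.39 (SE), adjusted p = 0.550). Rspo1 was at 213 and 113 CPM, on both sides of the XX WT range (adjusted p = 0.886).

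The target genes Sp5 and Axin2 and the effector gene Lef1 rose in XY +KTS KO. Sp5 was at 50.6 and 32.6 CPM against 5.55 and 7.89 CPM in XY WT (log2 fold change 2.63 ± 0.48 (SE), adjusted p = 0.00859), a call lost without XY WT replicate 1 (adjusted p = 0.0756). Lef1 was at 39.6 and 34.1 CPM (log2 fold change 1.63 ± 0.23 (SE), adjusted p = 0.00283), a call lost in a fit of the groups compared alone (adjusted p = 0.0519). Axin2 was at 29.3 and 14.2 CPM (log2 fold change 2.31 ± 0.34 (SE), adjusted p = 0.00345), and its call held in each alternative run. All 3 lay above both XY WT libraries. In XX +KTS KO they were at 36.9 and 16.6 CPM (Sp5), 37.1 and 30.8 CPM (Lef1) and 16.6 and 11.7 CPM (Axin2), each below both XX WT libraries, and none passed (adjusted p = 0.182, 0.205 and 0.395). With so few libraries this order alone does not show a fall. With no filter on low counts the Sp5 fall in XX +KTS KO passed (adjusted p = 0.0486). Nkd1 was at 82.3 and 35.2 CPM in XY +KTS KO, Tcf7 at 22.3 and 17.9 CPM and Ctnnb1 at 175 and 109 CPM, and none of these was called against XY WT (adjusted p = 0.127, 0.10004 and 0.505).

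Dkk1 fell in the +KTS KO of both sexes. XX +KTS KO held 25 and 34 UMIs and XY +KTS KO 29 and 78 UMIs, which correspond to 0.269 and 0.398 and 0.353 and 0.802 CPM. Every +KTS KO library was below every WT library. The log2 fold change was -3.66 ± 0.41, adjusted p = 0.00229, in XX and -6.72 ± 0.43, adjusted p = 6.25e-05, in XY, and both calls held in each alternative run. Wif1, named after its values were seen, also fell in both sexes, to 0.409 and 0.340 CPM in XX (log2 fold change -2.40 ± 0.31 (SE), adjusted p = 0.00369) and 0.486 and 0.309 CPM in XY (log2 fold change -3.25 ± 0.32 (SE), adjusted p = 0.000606). Sfrp4 rose in XX +KTS KO to 4.51 and 2.79 CPM (log2 fold change 3.87 ± 0.49 (SE), adjusted p = 0.00354). In XY +KTS KO, Sfrp1 rose to 80.8 and 101 CPM (log2 fold change 1.12 ± 0.29 (SE), adjusted p = 0.0351), a call lost without XY WT replicate 1 (adjusted p = 0.146), without XY WT replicate 2 (adjusted p = 0.117), without XY +KTS KO replicate 2 (adjusted p = 0.0827), in all kept cells (adjusted p = 0.0558) and in a fit of the groups compared alone (adjusted p = 0.0626). Sfrp2 was at 2.68 and 33.7 CPM in XX +KTS KO, where the higher library held 123 cells of the cluster led by Sfrp2 and Lum, and was not called (adjusted p = 0.354). The part of these cells in the difference between the replicates was not tested.

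Of the receptors, Lgr5 fell in both +KTS KO sexes, to 0.828 and 0.375 CPM in XX (log2 fold change -3.12 ± 0.64 (SE), adjusted p = 0.0250) and 2.96 and 0.669 CPM in XY (log2 fold change -2.58 ± 0.61 (SE), adjusted p = 0.0250). The XX call was lost without any 1 of the 4 libraries (adjusted p from 0.0720 to 0.189), and the XY call without XY WT replicate 1 (adjusted p = 0.0671), without XY WT replicate 2 (adjusted p = 0.0744) and in a fit of the groups compared alone (adjusted p = 0.112). Fzd9 fell in XY +KTS KO to 0.815 and 1.27 CPM (log2 fold change -3.52 ± 0.31 (SE), adjusted p = 0.000395), and this call held in each alternative run. Fzd2 was slightly higher in XY +KTS KO, at 43.6 and 48.1 CPM (log2 fold change 0.53 ± 0.14 (SE), adjusted p = 0.0368), a call lost without XY WT replicate 1 (adjusted p = 0.0771), without XY WT replicate 2 (adjusted p = 0.155), without XY +KTS KO replicate 2 (adjusted p = 0.0809), with RLE size factors (adjusted p = 0.0538), in all kept cells (adjusted p = 0.0719), with the mesenchyme and muscle clusters left out (adjusted p = 0.0775) and in a fit of the groups compared alone (adjusted p = 0.230). Rnf43 fell in XX +KTS KO to 0.409 and 0.375 CPM (log2 fold change -2.91 ± 0.49 (SE), adjusted p = 0.0119), a call lost without any 1 of the 4 libraries (adjusted p from 0.0525 to 0.106). Fzd5, Lgr6 and Wnt2b, under 5 CPM and named after their values were seen, were the other members called higher in XY +KTS KO. A replicate block ended the calls of Lgr6 and of Fzd2 there. The Fzd5 call was lost without any 1 of the 4 libraries (adjusted p from 0.0547 to 0.140), in all kept cells (adjusted p = 0.507) and in a fit of the groups compared alone (adjusted p = 0.127), that of Lgr6 without XY WT replicate 1 (adjusted p = 0.110), without XY WT replicate 2 (adjusted p = 0.153), without XY +KTS KO replicate 1 (adjusted p = 0.147), in all kept cells (adjusted p = 0.0604) and in a fit of the groups compared alone (adjusted p = 0.152) and that of Wnt2b without XY WT replicate 1 (adjusted p = 0.0558), without XY WT replicate 2 (adjusted p = 0.121), without XY +KTS KO replicate 1 (adjusted p = 0.103) and in a fit of the groups compared alone (adjusted p = 0.196). Rspo3 was at 2.63 and 17.9 CPM in XY +KTS KO, high in replicate 2 alone, the library with the Hoxc10-led cluster, where Rspo3 reached 171 CPM. It was not called (adjusted p = 0.0704), and the part of that cluster in the difference between the replicates was not tested.

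Set against each other within a sex, the mutants differed in 23 members in XX (11 higher and 12 lower in -KTS KO, beside 18.6% of all genes, 8.58% higher and 9.97% lower) and in 26 in XY (12 and 14, beside 21.6% of all genes, 9.91% higher and 11.7% lower). The XX count was 15 without XX -KTS KO replicate 1 and 14 without XX +KTS KO replicate 1, and the XY count 16 without XY -KTS KO replicate 1. For Wnt6 the log2 fold change of -KTS KO against +KTS KO was -2.71 ± 0.21, adjusted p = 3.53e-05, in XX and -2.60 ± 0.21, adjusted p = 4.66e-05, in XY. Wnt5a, a ligand best known for signalling without beta-catenin, was not called against WT in any group but stood at 87.7 and 82.1 CPM in XX -KTS KO and 24.1 and 24.4 CPM in XX +KTS KO (log2 fold change 1.81 ± 0.32 (SE), adjusted p = 0.00341). It lies outside the naming rule and was chosen after its values were seen. For Dkk1 the same log2 fold change was 5.21 ± 0.42, adjusted p = 4.9e-05, in XX and 5.10 ± 0.41, adjusted p = 4.77e-05, in XY.

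Within a mutant genotype no difference between the sexes was called. No member was called between XX and XY in -KTS KO (beside 0.0339% of all genes, 0.0113% higher and 0.0226% lower) or in +KTS KO (beside 0.0395% of all genes, 0.0169% higher and 0.0226% lower) with edgeR or with DESeq2. At an unadjusted p under 0.05 there were 3 and 4 members. The share of all genes at that threshold is not given, so these counts are no sign of a sex difference. A missed threshold with 2 libraries a group does not show that the levels were equal. For Wnt4 the log2 difference between XX and XY was 0.23 ± 0.39 in -KTS KO and 0.10 ± 0.39 in +KTS KO, and 2.91 ± 0.42 in WT.

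Whether the change from WT differed between the sexes was tested as the log2 fold change in XY minus that in XX. This value equals the XX minus XY difference in WT minus the same difference in the mutant. For -KTS KO 4 members were called (beside 3.06% of all genes, 1.27% higher and 1.8% lower) and for +KTS KO 9 (beside 3.82% of all genes, 1.8% higher and 2.02% lower). These contrasts share the WT libraries with those above and are not independent of them. Every member called in them was also called between XX WT and XY WT, and none between the sexes of a mutant. A sex difference in WT that is small in the mutant gives such a call. The calls therefore do not show that an allele acts in a sex-specific way. Fzd9 was called for both alleles and in each alternative run, with differences of -3.81 ± 0.44, adjusted p = 0.00482, and -4.71 ± 0.44, adjusted p = 0.00124. Wnt4, Lef1 and Dkk1 were also called for both. The count for -KTS KO was 1 without XX WT replicate 1 or replicate 2, and 2 without XX -KTS KO replicate 2, XY -KTS KO replicate 1 or XY WT replicate 1. That for +KTS KO was 3 without XX WT replicate 1, and 2 without XX WT replicate 2, XY WT replicate 1 or XX +KTS KO replicate 2.

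The cell classes show where these levels lay. Clusters were named from marker genes that include no pathway member, and 19 of the 28 somatic clusters drew over 90% of their cells from 1 genotype, so a class is made of different clusters in different groups and values within it are descriptions. Levels within a class are CPM of that class's UMIs in each library, without TMM. Supporting lineage-like cells made up 51.5% ± 3.36 (SD, n = 2) of somatic cells in XX WT, 47.2% ± 11.8 in XY WT, 19.3% ± 1.11 in XX -KTS KO, with 22.8% ± 0.174 for its XY counterpart, 45.8% ± 8.42 in XX +KTS KO, with 47.6% ± 5.38 for XY +KTS KO. Both -KTS KO groups held fewer of these cells than the other groups. Clusters named coelomic epithelium-like, for the layer that covers the gonad, went the other way, at 0.952% ± 0.526 of somatic cells in XX WT and 0.289% ± 0.135 in XY WT. In the -KTS KO their share was 19.3% ± 1.20 in XX and 22.7% ± 2.97 in XY. In the +KTS KO they made up 14.6% ± 0.00843 in XX and 7.89% ± 7.99 in XY, where the libraries differed widely. The 6 coelomic markers summed in the somatic sums differed less. They were at 84.5 to 94.0 CPM in XX WT and 86.0 to 86.5 CPM in XX +KTS KO, and at 56.8 to 101 and 75.8 to 76.7 CPM in XY. In -KTS KO they were at 129.6 to 172 CPM in XX and 150.5 to 164.7 CPM in XY. Unnamed clusters, 1 of them led by Sp5 and the coelomic marker Upk3b, held 22.1% ± 1.16 of XX WT somatic cells. The low WT shares therefore do not show that WT lacked such cells. Coelomic epithelium-like cells of XX -KTS KO held 16.9 ± 2.75 CPM of Wnt6, 81.1 ± 7.67 CPM of Fzd2, 25.6 ± 2.52 CPM of Fzd4 and 94.9 ± 10.1 CPM of Nkd1. Those of XY -KTS KO held 9.61 ± 2.61, 89.2 ± 7.88, 31.4 ± 7.55 and 116 ± 11.3 CPM of the same genes. The shares of both classes differ between the groups compared, and their part in the somatic sums was not tested. In XX WT the supporting lineage-like cells were mostly pre-granulosa-like cells, in XY WT Sertoli-like and pre-supporting-like cells. In -KTS KO they were mostly a cluster led by Wfdc13 and Cpa1, which the markers also named pre-granulosa-like. In +KTS KO they were mostly pre-supporting-like cells led by Cyp11a1 and Pnmt. In XY +KTS KO replicate 1 they were mostly the pre-granulosa-like cluster led by Cst12 and Fos. The authors of the study named them otherwise, with pre-granulosa clusters in +KTS KO and none in -KTS KO. These names are labels of marker levels and do not show how far the cells had differentiated.

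Wnt6 was lower in -KTS KO within both main classes. Its CPM in supporting lineage-like cells averaged 591 ± 104 (SD, n = 2) for XX WT against 249.8 ± 91.6 for XX -KTS KO, and 487 ± 77.2 for XY WT against 265 ± 25.8 for XY -KTS KO. The interstitial progenitor-like means were 109 ± 0.594 CPM for XX WT against 7.94 ± 3.03 CPM for XX -KTS KO, then 49.5 ± 3.36 CPM for XY WT against 5.59 ± 0.461 CPM for XY -KTS KO. In +KTS KO the supporting lineage-like level was 807 ± 32.4 CPM in XX and 844 ± 113 CPM in XY. The authors of the study reported the reverse order for XX, from comparisons between their own clusters. They listed Wnt6 as higher in -KTS KO pre-supporting cells and lower in +KTS KO pre-granulosa cells. The pooled class used here holds other cells, and the reason for the difference was not tested.

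Wnt4 behaved otherwise. Supporting lineage-like cells held 649 ± 2.42 CPM for XX WT against 95.8 ± 32.5 CPM for XY WT, and between 456.2 and 512 CPM in the mutant groups. The interstitial progenitor-like means were 108.1 ± 30.6 CPM for XX WT against 334 ± 168 CPM for XX -KTS KO, then 10.3 ± 2.77 CPM for XY WT against 265 ± 0.698 CPM for XY -KTS KO. The interstitial mean was above WT in both -KTS KO sexes. Rspo1 showed the same in interstitial progenitor-like cells, at 76.4 ± 1.58 CPM in XX WT and 200 ± 1.84 CPM in XX -KTS KO, and at 46.8 ± 1.61 and 178 ± 8.88 CPM in XY.

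Dkk1 and Fzd9, both high in XY WT, lay in different cells. Dkk1 was at 114 ± 17.7 CPM in interstitial progenitor-like cells of XY WT and at 5.25 ± 0.543 CPM in the supporting lineage-like cells. Fzd9 was at 0.488 ± 0.0763 CPM and 25.3 ± 6.86 CPM in the same classes, and at 39.3 ± 3.15 CPM in Sertoli-like cells, a class with too few cells for a level in any other group. Sfrp1 was higher in the interstitial class in every group, at 269.8 ± 47.9 CPM for XX -KTS KO against 96.5 ± 33.2 CPM for XX WT. In the supporting lineage-like cells it was at 93.0 ± 1.19 and 14.0 ± 2.85 CPM. Sp5 was at 47.8 ± 3.20 CPM and 71.5 ± 1.53 CPM in the supporting and interstitial classes of XX WT, and at 2.71 ± 1.81 and 4.51 ± 2.22 CPM in those of XX -KTS KO, low in both.

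**Figure D5:**
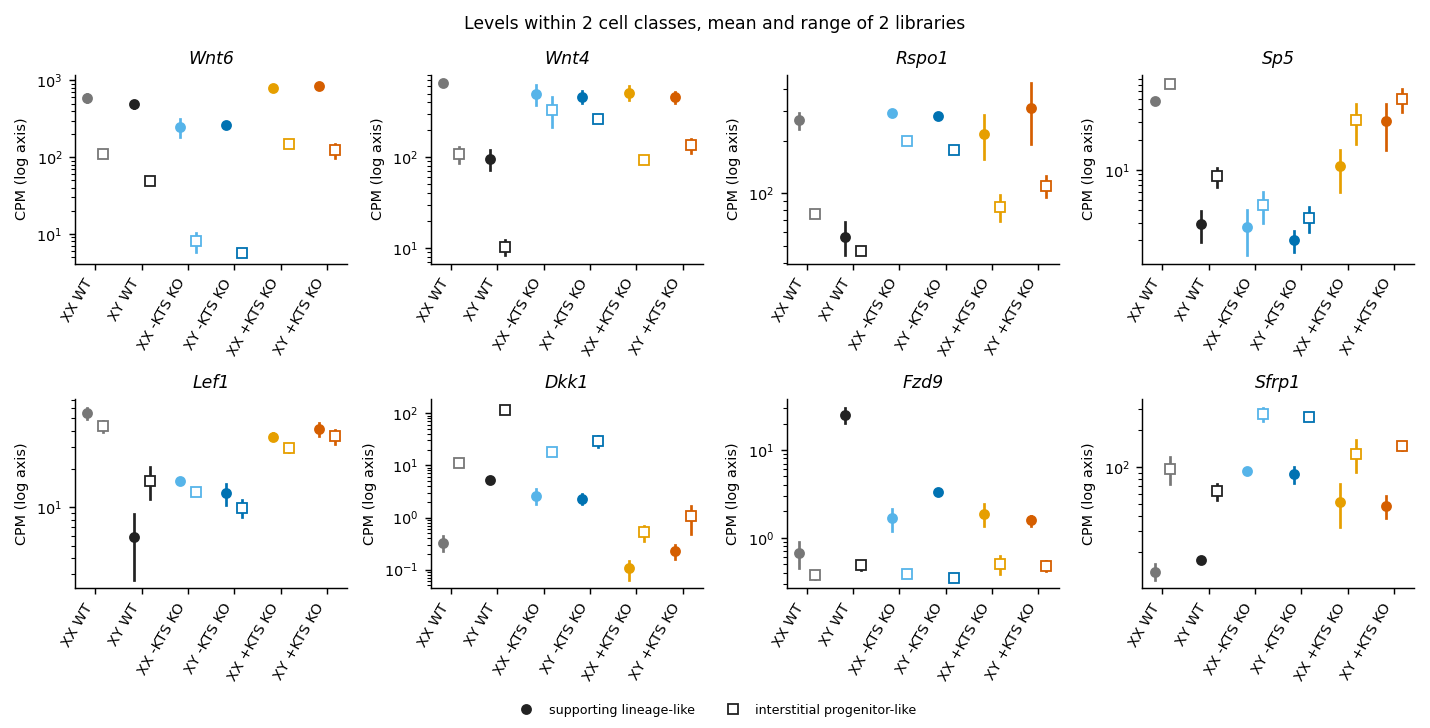
CPM of 8 members within supporting lineage-like cells (filled circles) and interstitial progenitor-like cells (open squares) of each group on a log axis, with the mean and the range of the 2 libraries. Wnt6 is lowest in the interstitial cells of both -KTS KO groups, Fzd9 is high only in the supporting lineage-like cells of XY WT, and Dkk1 is highest in the interstitial cells of XY WT.

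The share of somatic cells with at least 1 UMI followed the sums. With each cell thinned to 5000 UMIs, and 442 to 1874 shallower cells per group left out, Wnt6 was seen in 61.5% ± 0.407 (SD, n = 2) of cells in XX WT and 47.4% ± 5.83 in XY WT. Of mutant cells, 15.6% ± 0.648 had it for XX -KTS KO, 16.6% ± 0.0828 for XY -KTS KO, 63.1% ± 5.87 for XX +KTS KO, with 61.0% ± 1.39 for XY +KTS KO. Without thinning these shares were 72.9%, 57.6%, 23.4%, 23.9%, 72.3% and 69.6% for XX WT, XY WT, XX -KTS KO, XY -KTS KO, XX +KTS KO and XY +KTS KO. Wnt4 was seen in 62.0% ± 2.29 of thinned cells in XX WT, 14.2% ± 5.85 in XY WT, 53.5% ± 14.3 for XX -KTS KO, with 49.6% ± 1.42 for XY +KTS KO. In germ-like and endothelial-like cells, which mark the background of free RNA, the thinned shares were 0.109% to 5.29% for Wnt6 and 0.151% to 3.48% for Wnt4. Median depth before thinning was 9802.5 to 18916 UMIs per somatic cell, 21910 to 60210 per germ-like cell and 13280 to 27940 per endothelial-like cell.

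Further genes of the pathway came from a list of 57, of which 55 were tested. Against WT, 12 were higher and 7 lower in XX -KTS KO (beside 16.2% of all genes), and 11 and 10 for XY -KTS KO (beside 23.4%). For XX +KTS KO it was 1 and 1 (beside 4.98%), for XY +KTS KO 8 and 3 (beside 12.4%), and 5 and 4 in XX WT against XY WT (beside 13.3%). Of the 11 calls in XY +KTS KO and the 2 in XX +KTS KO, none held in every alternative. A fit of the groups compared alone called 0 in XY +KTS KO. Of the 12 genes for secretion and extracellular regulation, 5 rose and 2 fell in XX -KTS KO, and 6 rose and 3 fell in XY -KTS KO. Of the 12 genes of the complex that destroys beta-catenin, 1 rose in XX -KTS KO and none was called in XY -KTS KO. Of the 6 further reported targets tested, 0 rose and 3 fell in XX -KTS KO, 0 and 4 for XY -KTS KO, 0 and 1 for XX +KTS KO and 2 and 3 for XY +KTS KO. Of these 6, 2 were higher and 1 lower in XX WT than in XY WT, with a median log2 fold change of -0.59.

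Frzb, a secreted Wnt-binding protein, had the largest rise among these genes in both -KTS KO sexes, from 0.547 and 0.306 to 10.8 and 15.2 CPM in XX (log2 fold change 4.95 ± 0.92 (SE), adjusted p = 0.00640) and from 1.06 and 1.14 to 16.2 and 13.3 CPM in XY (log2 fold change 3.75 ± 0.85 (SE), adjusted p = 0.0111). Every -KTS KO library was above every WT library. Prickle1, a gene of planar cell polarity, rose in XX (1.43 ± 0.23), and Daam2 in XY (1.36 ± 0.30). Tnfrsf19, a reported target, fell in XX -KTS KO (-3.55 ± 0.35) and rose in XY +KTS KO (1.504 ± 0.33). Gpc4, a cell surface proteoglycan, fell in XX -KTS KO (-1.17 ± 0.24). Nkd2, a relative of Nkd1, fell in XY -KTS KO (-3.02 ± 0.38) and in XY +KTS KO (-2.19 ± 0.37), as did Ccnd1, the cyclin D1 gene (-2.29 ± 0.31 and -1.03 ± 0.30). Tle2, a co-repressor, rose in both +KTS KO sexes (0.70 ± 0.13 in XX and 1.02 ± 0.13 in XY). In XY -KTS KO Tle2 was called lower (adjusted p = 0.00122), and it was also called in XX -KTS KO (adjusted p = 0.000833). Both of these -KTS KO calls held in each alternative run. In XY +KTS KO the call of Tnfrsf19 (adjusted p = 0.0176) was lost without XY +KTS KO replicate 1 (adjusted p = 0.0689), without XY WT replicate 1 (adjusted p = 0.0625), in all kept cells (adjusted p = 0.0703) and in a fit of the groups compared alone (adjusted p = 0.126). That of Ccnd1 (adjusted p = 0.0497) was lost without XY +KTS KO replicate 2 (adjusted p = 0.0886), without XY WT replicate 1 (adjusted p = 0.258), without XY WT replicate 2 (adjusted p = 0.0506), in all kept cells (adjusted p = 0.197), with doublets kept (adjusted p = 0.0553), with the marker gate (adjusted p = 0.0515), with the mesenchyme and muscle clusters left out (adjusted p = 0.0565) and in a fit of the groups compared alone (adjusted p = 0.212). Nkd2 (adjusted p = 0.00593) lost it in a fit of the groups compared alone (adjusted p = 0.0662). So did Tle2 (adjusted p = 0.00171), in a fit of the groups compared alone (adjusted p = 0.0708). In XX +KTS KO, Tle2 (adjusted p = 0.0155) lost it without any 1 of the 4 libraries (adjusted p from 0.0844 to 0.115). In the -KTS KO, Frzb lost its call in XX without XX WT replicate 2 (adjusted p = 0.0618) and in XY without XY WT replicate 1 (adjusted p = 0.0710) and without XY WT replicate 2 (adjusted p = 0.0648). Gpc4 lost its call in XX without XX -KTS KO replicate 1 (adjusted p = 0.0799) and without XX WT replicate 1 (adjusted p = 0.0605). Daam2 lost its call in XY without XY -KTS KO replicate 2 (adjusted p = 0.0575) and without XY WT replicate 1 (adjusted p = 0.0704). Prickle1 and Tnfrsf19 in XX and Nkd2 and Ccnd1 in XY kept theirs in each alternative run. These values are log2 fold changes with SE.

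The remaining members are given by counts. Of the 56, 7 did not pass the filter on low counts: Rspo2, Wnt1, Wnt10b, Wnt3, Wnt3a, Wnt7a and Wnt8a, none of which exceeded 0.278 CPM in any library. Of the 49 tested, 36 were called in at least 1 of the comparisons with WT, between the WT sexes, or of the sex differences, beside 37.1% of all genes tested. Wnt11 was called in none of these, and its libraries differed widely within groups: it was at 9.46 and 1.75 CPM in XX WT and 3.37 and 35.9 CPM in XY +KTS KO. It was chosen for mention after its values were seen.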

How the data were processed

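The gonads were dissociated with trypsin, and 3′ libraries were made on a 10x Chromium instrument. The authors aligned and counted the reads with Cell Ranger 6.0 against mm10 and deposited raw UMI counts per gene and barcode, without normalization, which were the start here. The 56 members, the gene lists and the tests were chosen with earlier results of these data known.

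Following the authors' methods, barcodes under 1000 genes or over 10% mitochondrial UMIs were dropped (83513 of 103730 stayed). The top-scoring barcodes by Scrublet (scanpy 1.11.5), 0.8% per 1000 barcodes, were removed as doublets, because its own threshold called at most 3 in 9 libraries. Cells were clustered with sctransform 0.4.2 and Seurat 5.3.0 (3000 genes, 50 components, resolution 0.8), giving 38 clusters named from marker genes. The counts of gonadal somatic cells were summed per library and tested with edgeR 4.0.16 (TMM, filterByExpr, quasi-likelihood test, 6 group means, Benjamini-Hochberg over 17707 genes, 11 contrasts). The SE was taken from the log2 fold change and its F statistic. Statements that the libraries of a group lay above, below or apart from those of another are descriptions and not tests. The share of all genes separated in this way was not counted. The p-values rest on an estimate of spread per gene that all 6 groups of 2 libraries share, so each comparison also draws on groups outside it. The SD of the log2 difference between replicates was 0.771 in XY +KTS KO and 0.521 to 0.599 in the other groups. Members with at least 5 CPM in a group and a call against WT, between WT sexes or in a sex difference were named, with Rspo1, Wnt4, Wnt6, Ctnnb1, Axin2, Lef1 and Porcn always named. The other pathway genes named were the 2 largest rises and falls of at least 5 CPM in each mutant comparison.

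On simulated counts for XX -KTS KO against XX WT over 17707 genes, 71.2% of genes changed 4-fold and 29.3% of those changed 2-fold were recovered, and 8.07% of calls were false. Only a small part of the genes was changed in that simulation, and the others had equal means in all groups. In the data 16.2% of genes were called in this comparison, so these shares need not hold there. Alternatives were DESeq2 1.42.0, RLE size factors, no filter, all kept cells, a marker gate per cell, doublets kept, a fit of the groups compared alone, a replicate block and each library left out, and a further one, the mesenchyme and muscle clusters left out, was chosen after seeing the data.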

Additional observations from a re-analysis of the deposited data

Results flagged for a closer look

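With 2 libraries a group, no single library could be tested as standing apart from its group. What could be tested was whether the change from WT differed between XY and XX, given as the log2 fold change in XY minus that in XX. 13 such differences passed an FDR of 0.05, all of them with the same WT libraries behind them. Each member concerned was also called between XX WT and XY WT, so these calls are not separate from the WT sex difference.

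For the -KTS KO, Wnt4 differed by 2.68 ± 0.56 (SE), adjusted p = 0.0352: it was above WT in both XY libraries and on both sides of WT in XX. Its call was lost without XX WT replicate 1 (adjusted p = 0.0994), without XX WT replicate 2 (adjusted p = 0.117), without XY WT replicate 1 (adjusted p = 0.110), without XX -KTS KO replicate 2 (adjusted p = 0.114), without XY -KTS KO replicate 1 (adjusted p = 0.121), without XY -KTS KO replicate 2 (adjusted p = 0.0782) and in all kept cells (adjusted p = 0.0818). Lef1 differed by 1.76 ± 0.32 (SE), adjusted p = 0.0220, with a called fall in XX alone, and this call was lost without XX WT replicate 1 (adjusted p = 0.0684), without XX WT replicate 2 (adjusted p = 0.0888), without XY WT replicate 1 (adjusted p = 0.0527), without XX -KTS KO replicate 1 (adjusted p = 0.0755), without XX -KTS KO replicate 2 (adjusted p = 0.0955), without XY -KTS KO replicate 1 (adjusted p = 0.0884) and in all kept cells (adjusted p = 0.168). Dkk1 differed by -3.17 ± 0.47 (SE), adjusted p = 0.0108, higher than WT in both XX libraries and lower in both XY libraries, and this call was lost without XX WT replicate 1 (adjusted p = 0.0620), without XX WT replicate 2 (adjusted p = 0.0567) and in all kept cells (adjusted p = 0.0714). Fzd9 differed by -3.81 ± 0.44 (SE), adjusted p = 0.00482, and this call held in each alternative run.

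For the +KTS KO, Sp5, Axin2, Lef1 and Wnt4 rose in XY and were not called in XX. Sp5 differed by 3.84 ± 0.66 (SE), adjusted p = 0.0149, a call that was lost without XX WT replicate 1 (adjusted p = 0.0522), without XX WT replicate 2 (adjusted p = 0.0559), without XY WT replicate 1 (adjusted p = 0.0716) and without XX +KTS KO replicate 2 (adjusted p = 0.0559). Axin2 differed by 2.90 ± 0.47 (SE), adjusted p = 0.0120, a call that was lost without XX WT replicate 2 (adjusted p = 0.0528), without XY WT replicate 1 (adjusted p = 0.0577) and without XX +KTS KO replicate 2 (adjusted p = 0.0572). Lef1 differed by 2.21 ± 0.32 (SE), adjusted p = 0.00801, a call that was lost in all kept cells (adjusted p = 0.0567). Wnt4 differed by 2.81 ± 0.56 (SE), adjusted p = 0.0275, a call that was lost without XX WT replicate 1 (adjusted p = 0.0763), without XX WT replicate 2 (adjusted p = 0.0921), without XY WT replicate 1 (adjusted p = 0.0838), without XX +KTS KO replicate 2 (adjusted p = 0.126), without XY +KTS KO replicate 1 (adjusted p = 0.0523) and in all kept cells (adjusted p = 0.0623).

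The R-spondin Rspo1 differed by 2.02 ± 0.43 (SE), adjusted p = 0.0334, and its call was lost without XX WT replicate 1 (adjusted p = 0.113), without XX WT replicate 2 (adjusted p = 0.0736), without XY WT replicate 1 (adjusted p = 0.129), without XY WT replicate 2 (adjusted p = 0.0507), without XX +KTS KO replicate 2 (adjusted p = 0.0972), without XY +KTS KO replicate 1 (adjusted p = 0.0697) and in a fit of the groups compared alone (adjusted p = 0.0958). Wnt9a differed by 2.65 ± 0.61 (SE), adjusted p = 0.0459, and its call was lost without XX WT replicate 1 (adjusted p = 0.118), without XX WT replicate 2 (adjusted p = 0.130), without XY WT replicate 1 (adjusted p = 0.146), without XX +KTS KO replicate 1 (adjusted p = 0.0769), without XX +KTS KO replicate 2 (adjusted p = 0.178), without XY +KTS KO replicate 1 (adjusted p = 0.0922) and in a fit of the groups compared alone (adjusted p = 0.0654). The ligase gene Rnf43 differed by 3.48 ± 0.69 (SE), adjusted p = 0.0269, and its call was lost without XX WT replicate 1 (adjusted p = 0.0695), without XX WT replicate 2 (adjusted p = 0.0903), without XY WT replicate 1 (adjusted p = 0.0960), without XX +KTS KO replicate 1 (adjusted p = 0.0778), without XX +KTS KO replicate 2 (adjusted p = 0.108) and in a fit of the groups compared alone (adjusted p = 0.0807). The genes high in XY WT differed the other way. Dkk1 differed by -3.05 ± 0.56 (SE), adjusted p = 0.0207, and its call was lost without XX WT replicate 1 (adjusted p = 0.0696), without XX WT replicate 2 (adjusted p = 0.0784), without XY WT replicate 1 (adjusted p = 0.0668), without XX +KTS KO replicate 2 (adjusted p = 0.119) and in all kept cells (adjusted p = 0.260). Fzd9 differed by -4.71 ± 0.44 (SE), adjusted p = 0.00124, and its call held in each alternative run.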

How the results depend on the processing

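Of 94 calls on single members, 39 held in every alternative and 55 were lost in at least 1, with 33 of the 73 results that use XY WT lost without XY WT replicate 1. Doublets kept and the marker gate changed none of the 104 single-member results followed, but calls were gained elsewhere: 21 members were called in XX -KTS KO with the gate and 20 with doublets kept, against 19. Leaving out 1 library gave 9 to 11 members called for XX WT against XY WT, 11 to 13 for XX -KTS KO, 15 to 19 for XY -KTS KO, 3 to 5 for XX +KTS KO, 6 to 17 for XY +KTS KO, 14 to 23 for the mutants against each other in XX, 16 to 27 for the mutants against each other in XY, 0 for the sexes within -KTS KO, 0 to 1 for the sexes within +KTS KO, 1 to 6 for the sex difference of -KTS KO, 2 to 13 for the sex difference of +KTS KO. For the other pathway genes it gave 3 to 7 for XX WT against XY WT, 7 to 12 for XX -KTS KO, 8 to 15 for XY -KTS KO, 1 for XX +KTS KO, 2 to 15 for XY +KTS KO. With DESeq2, 9 members were called for the sex difference of -KTS KO, and with no filter 9 for it and 8 in XX +KTS KO. In a fit of the groups compared alone there were 8 for that sex difference and 8 in XY +KTS KO, and in all kept cells 2 for that sex difference. The other pathway genes called in XX +KTS KO were 5 with DESeq2, 4 with no filter and 8 in a fit of the groups compared alone, where XY +KTS KO had 0. In all kept cells they were 12 in XX -KTS KO, 6 in XY +KTS KO and 4 in XX WT against XY WT. Some log2 fold changes that were not called turned direction when 1 library was left out. Axin2 in XX -KTS KO ran from -0.48 to 0.010, turned without XX WT replicate 2, and Wnt4 there ran from -0.98 to 0.062, turned without XX -KTS KO replicate 2. Lef1 in XY -KTS KO ran from -0.067 to 0.63, turned without XY WT replicate 1, and was -0.12 in all kept cells. Rspo1 in XX +KTS KO ran from -0.66 to 0.26, turned without XX WT replicate 1 (0.072) and XX +KTS KO replicate 2, and was 0.082 in all kept cells. Fzd10 in XX -KTS KO, a call, turned in all kept cells to -0.53 on the log2 scale. The cause of these changes was not tested, and the counts under each setting stand without its share of all genes called. Leaving out the mesenchyme and muscle clusters, chosen after seeing the data, ended 2 of the calls on single members (Fzd2 in XY +KTS KO and Nkd1 in XY -KTS KO), and among the other pathway genes those of Ccnd1 and Cd44 in XY +KTS KO and Sostdc1 in XX -KTS KO. Without thinning the share of cells with a UMI was 73.9% in XX WT, 21.4% in XY WT, 67.4% in XX -KTS KO, 63.9% in XY -KTS KO, 60.2% in XX +KTS KO, 60.1% in XY +KTS KO for Wnt4 and 72.9% in XX WT, 57.6% in XY WT, 23.4% in XX -KTS KO, 23.9% in XY -KTS KO, 72.3% in XX +KTS KO, 69.6% in XY +KTS KO for Wnt6.

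Replicates share only a number here: the correlation of same-numbered libraries' deviations ran from -0.212 to 0.166 over 15 pairs of groups, with 4 over 0.1. With a replicate block the members called were 12 for XX WT against XY WT, 19 for XX -KTS KO, 28 for XY -KTS KO, 5 for XX +KTS KO, 15 for XY +KTS KO, 25 for the mutants against each other in XX, 26 for the mutants against each other in XY, 0 for the sexes within -KTS KO, 0 for the sexes within +KTS KO, 5 for the sex difference of -KTS KO, 8 for the sex difference of +KTS KO. Of the single-member results followed, the block ended the calls of Fzd2 and Lgr6 in XY +KTS KO (adjusted p = 0.0528 and 0.0569), of Rspo4 and Wnt5b in XY -KTS KO (adjusted p = 0.0547 and 0.0516) and of Wnt9a in the sex difference of +KTS KO (adjusted p = 0.0573), and Sp5 in XY -KTS KO was then called (adjusted p = 0.0456). With 2 libraries a group and UMIs that are counted molecules, genes under 1 CPM rest on few counts, and of genes changed 1.5-fold in the simulated counts of XX -KTS KO against XX WT 1.49% were recovered. That simulation changed only a small part of the genes, so this share need not hold for the data.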

Other observations

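The cells set aside carried members of their own, given here as means over 2 libraries with no test. In germ-like cells, Porcn was at 64.3 ± 4.08 CPM (SD, n = 2) for XX WT against 14.5 ± 1.57 CPM for XY WT. XX -KTS KO had 48.6 ± 1.54 CPM against 30.03 ± 4.24 CPM for XY -KTS KO, while XX +KTS KO had 46.5 ± 10.9 CPM against 21.3 ± 3.75 CPM for XY +KTS KO. The XX mean was above the XY mean in each genotype. Porcn is X-linked, and the somatic sums held at most 2.87 CPM. Lef1 in germ-like cells was at 55.7 ± 7.11 CPM for XX WT against 49.95 ± 6.33 CPM for XY WT, a smaller difference of means than in the somatic sums. Wnt3, too low to be tested in the somatic sums, had its highest level by cluster (8.69 CPM) in a germ-like cluster.

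A small somatic cluster without a name stood out by its pathway genes. Led by Plac8, Egfl6 and Pax8, it held 603 cells, 160 and 398 of them in the XX WT libraries. Of all clusters it had the highest levels of Wnt4 (1189 CPM), Lef1 (73.7 CPM) and Axin2 (62.6 CPM). Sp5 was highest (94.3 CPM) in a further unnamed cluster led by Sp5 itself and Upk3b, which held 808 and 714 cells of XX WT. Levels that define a cluster are a description of it. In the mesonephric duct-like cells, 71 in all with 70 from XY +KTS KO replicate 2, Dkk1 was at 164 CPM, and in the somatic sum of that library at 0.802 CPM.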
